A study of Mus musculus with 8 samples.

Results

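The genes of antigen presentation by MHC class II were followed in RNA-seq libraries of mouse bone marrow B cells. They are 10 genes chosen by name: the chains of the class II molecules themselves (H2-Aa, H2-Ab1 and H2-Eb1), the invariant chain Cd74, the transactivator Ciita, the chains of the peptide-loading molecule H2-DM (H2-DMa, H2-DMb1 and H2-DMb2) and the chains of its partner H2-O (H2-Oa and H2-Ob). The deposited table lists 54532 genes, of which 15305 had enough counts to be tested, and all 10 class II genes were among those tested. The rule that chose them is their names and uses no measured value, but the group was proposed with earlier results of these data known.

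B cells were taken from the bone marrow of sham-operated female mice (Sham, 3 libraries) and of ovariectomized female mice (OVX, 3 libraries). Ovariectomy, the surgical removal of the ovaries, is a model of estrogen deficiency, and the comparison asks how the B cell transcriptome differed after it. The labels give the RNA libraries no genotype, strain, age or time after surgery, and nothing in them says that each library came from a separate mouse, so the p-values measure the spread between these libraries, which may be technical. The B cells were isolated with antibody-coated magnetic beads, so a library holds all marrow stages from progenitor to mature B cell and whatever other cells stayed with the beads.

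MHC class II molecules are pairs of an alpha and a beta chain that carry peptides to the cell surface, where CD4 T cells read them. In the endoplasmic reticulum the empty pair binds the invariant chain, which is later cut down to a short peptide that H2-DM removes in exchange for antigen, while H2-O, a feature of B cells, restrains H2-DM. The genes of the class II chains, the invariant chain and H2-DM are switched on by Ciita. It binds no DNA itself but docks on factors that sit on the conserved X and Y boxes of class II promoters. Class II rises as B cells mature in the marrow, and is also carried by dendritic cells and by some macrophages.

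The shared promoter letters are shown first because they are a feature the members have in common outside the measured levels. RefSeq promoter windows (mouse build GRCm38.p6, from 250 bases before to 50 bases after a gene start) were used for 7 of the 10 members, in 8 windows, as H2-DMa has a pair of starts. No window was used for H2-Ab1, Cd74 and Ciita. The letters searched on both strands were TGATTGG, the inverted CCAAT sequence of a Y box, and AACNNATGATGC, an X-box-like stretch, where N is any base. They were chosen after the members' windows had been read, so the members' matches are a description. Each line gives 48 bases, 5′ to 3′ on the strand of the gene, with the matched letters in capitals.
H2-Eb1, chr17:34305770-34305817, plus strand: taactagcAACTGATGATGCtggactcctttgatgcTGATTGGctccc
H2-Ob, chr17:34238810-34238857, plus strand: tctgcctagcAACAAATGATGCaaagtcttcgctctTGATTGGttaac
H2-DMb1, chr17:34153092-34153139, plus strand: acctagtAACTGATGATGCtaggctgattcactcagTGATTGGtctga
H2-DMb2, chr17:34145121-34145168, plus strand: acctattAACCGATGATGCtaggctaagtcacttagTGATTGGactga
H2-Aa, chr17:34287862-34287909, minus strand: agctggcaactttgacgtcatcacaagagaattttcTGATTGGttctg
H2-Oa, chr17:34092298-34092345, plus strand: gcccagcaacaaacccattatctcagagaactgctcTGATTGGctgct

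The Y letters stood in the windows of 6 members and in 2568 of all 32851 mouse promoter windows of this length (7.82%). The X letters stood in those of H2-Eb1, H2-Ob, H2-DMb1 and H2-DMb2, and in 13 of all windows (0.0396%). In these 4 members the X letters ended 14 to 17 bases before the Y letters, and the matches did not overlap. Both sets of letters together stood in 5 windows of the 32851 (0.0152%), 4 of them members and the last that of Gm38969 on chromosome 7. The windows of H2-DMa held neither set in this spelling, which says nothing of the factors that bind there.

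The libraries held 23838775 to 33136701 counts each, and the members were well covered, from 645 reads for H2-Oa in Sham replicate 1 to 129692 for Cd74 in Sham replicate 2. The counting error was at most 3.94% of a member's count in any library, so the rise in Sham replicate 2 described next is far larger than counting error alone. Levels are given as CPM, the field's counts-per-million unit computed here with edgeR's TMM scaling of the libraries, and not per length of transcript, so a level is compared between libraries and not between genes. The markers of the B lineage were high in all 6 libraries, with 1547 to 1881 CPM of Cd79a, a signalling chain of the B cell receptor. Sham replicates 2 and 3 each stood apart from the rest. Sham replicate 3 held the most neutrophil RNA, a summed 9863 CPM over 15 neutrophil genes against 1145 to 4149 in the other libraries. Sham replicate 2 held the least RNA of pro-B and pre-B genes and the most of mature B cell and macrophage genes, and its values are set beside the class II results. Each comparison is therefore given with and without Sham replicate 2.

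The 10 genes moved together as a block across the 6 libraries, and the block followed 1 library more than the surgery. Every member was highest in Sham replicate 2, where it stood 1.82 to 2.38 times above the mean of the other 5 libraries (median 2.01, against 0.988 over all genes tested), and every member was lowest in Sham replicate 1. The summed level of the 10 genes was 4350, 10185 and 5066 CPM in Sham replicates 1, 2 and 3, and 5705, 4855 and 5560 CPM in OVX replicates 1, 2 and 3. The means were 6534 ± 3182 CPM in Sham and 5373 ± 454 CPM in OVX (SD, n = 3 per group). Without Sham replicate 2 the Sham mean was 4708 CPM, below every OVX library. The libraries still overlapped, as Sham replicate 3 lay above OVX replicate 2. In bulk RNA of this kind, fewer class II-positive cells and less class II RNA per cell cannot be told apart.

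**Figure D1:**
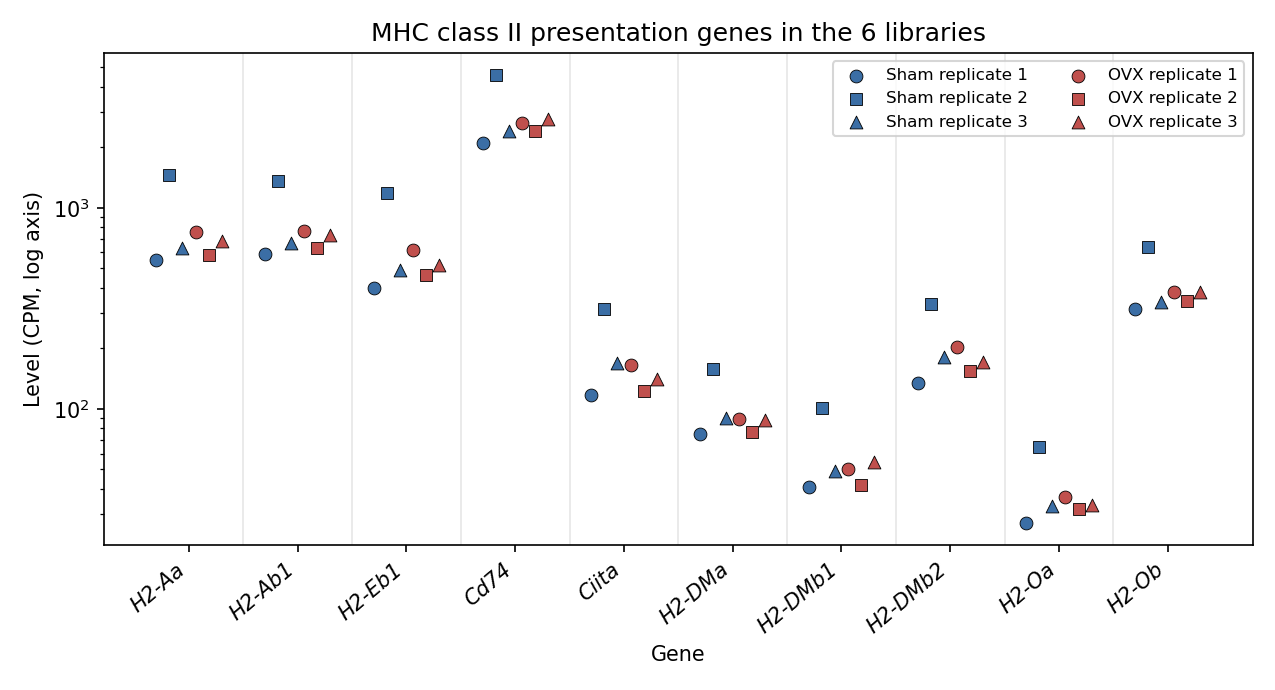
Level of the 10 MHC class II genes in TMM-scaled CPM on a log axis. Each gene has a point for each of the 3 Sham and 3 OVX libraries. Sham replicate 2 is the highest point for every gene, and the other 5 libraries of a gene lie within 1.53 times of each other.

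H2-Aa (ENSMUSG00000036594, chr17:34282744-34287823) encodes the alpha chain of I-A, a classical class II molecule. Its level was 553, 1461 and 633 CPM in Sham replicates 1, 2 and 3, and 761, 581 and 682 CPM in OVX. The OVX libraries lay between Sham replicates 1 and 2, so the groups overlapped. The log2 fold change of OVX over Sham was -0.39 (standard error 0.35, adjusted p = 0.815 by edgeR's quasi-likelihood test), and 0.18 (standard error 0.13) without Sham replicate 2.

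H2-Ab1 (ENSMUSG00000073421, chr17:34263227-34269418) encodes the beta chain that pairs with H2-Aa. It measured 587, 1365 and 668 CPM in the Sham libraries and 768, 631 and 730 CPM in the OVX libraries, the same order of libraries as for H2-Aa. The log2 fold change was -0.30 (standard error 0.30, adjusted p = 0.819 by edgeR), or 0.17 (standard error 0.11) without Sham replicate 2.

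H2-Eb1 (ENSMUSG00000060586, chr17:34305867-34316674), whose promoter holds both sets of letters printed above, encodes the beta chain of the second classical class II molecule, I-E. It had the strongest rise in Sham replicate 2 of the 10 genes, with 401.5, 1185 and 491 CPM in Sham and 614, 466 and 521 CPM in OVX. The log2 fold change was -0.38 (standard error 0.38, adjusted p = 0.821 by edgeR) and 0.26 (standard error 0.14) without Sham replicate 2. H2-Ea, the gene of the alpha chain that pairs with H2-Eb1, is listed as a pseudogene, as it is in mice of the C57BL/6 background, and had too few reads to be tested.

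Cd74 (ENSMUSG00000024610, chr18:60803849-60812652), the invariant chain, had 2101, 4564 and 2412 CPM in Sham and 2636, 2407 and 2754 CPM in OVX. Sham replicate 2 was again alone at the top, and the other 5 libraries lay close together. The log2 fold change was -0.22 (standard error 0.28, adjusted p = 0.853 by edgeR), against 0.20 (standard error 0.10) without Sham replicate 2.

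Ciita (ENSMUSG00000022504, chr16:10480014-10531064), the transactivator of the group and the only member besides Cd74 that lies outside the class II cluster on chromosome 17, had 117, 314 and 170 CPM in Sham and 164, 123 and 141 CPM in OVX. Of the 10 genes it had the lowest log2 fold change, -0.49 (standard error 0.33, adjusted p = 0.811 by edgeR). Without Sham replicate 2 it was -0.0094 (standard error 0.18), the only member that did not then turn above 0. Sham replicate 3 was its second highest library, whereas OVX replicate 1 held that place for 6 of the other members.

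H2-DMa (ENSMUSG00000037649, chr17:34119693-34139101), the alpha chain of the editor that exchanges peptides, measured 75.1, 157 and 89.6 CPM in Sham and 89.0, 76.8 and 87.9 CPM in OVX. The log2 fold change was -0.34 (standard error 0.25, adjusted p = 0.811 by edgeR) and 0.035 (standard error 0.11) without Sham replicate 2. Its annotated span runs into that of Brd2, so its reads are uncertain where the genes overlap.

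The beta chains of H2-DM come from a pair of neighbouring and similar genes. H2-DMb1 (ENSMUSG00000079547, chr17:34153191-34160229) had 41.0, 101 and 48.9 CPM in Sham and 50.05, 41.8 and 54.3 CPM in OVX. H2-DMb2 (ENSMUSG00000037548, chr17:34143229-34151553) had 134, 331 and 180 CPM in Sham and 202, 154 and 172 CPM in OVX. Both overlapped between the groups and were highest in Sham replicate 2. Their log2 fold changes were -0.39 (standard error 0.32) and -0.29 (standard error 0.31), and without Sham replicate 2 they were 0.11 (standard error 0.14) and 0.16 (standard error 0.16). How reads that fit both copies were assigned is not given in the sources used here, so the split between them is uncertain.

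H2-Oa (ENSMUSG00000024334, chr17:34092379-34095234), the alpha chain of the H2-DM antagonist, had the fewest reads of the members and measured 27.2, 64.6 and 32.8 CPM in Sham and 36.4, 31.6 and 33.3 CPM in OVX. Its log2 fold change was -0.30 (standard error 0.30, adjusted p = 0.819 by edgeR) and 0.17 (standard error 0.12) without Sham replicate 2.

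H2-Ob (ENSMUSG00000041538, chr17:34238905-34245908), the beta chain that pairs with H2-Oa, measured 312, 642 and 340 CPM in Sham and 384, 343 and 383 CPM in OVX. All 3 OVX libraries lay above Sham replicates 1 and 3 and below Sham replicate 2. The log2 fold change was -0.22 (standard error 0.26, adjusted p = 0.845 by edgeR), and 0.18 (standard error 0.08, unadjusted p = 0.0729 by edgeR) without Sham replicate 2, the lowest p-value of any member in that comparison.

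No class II gene passed the test between OVX and Sham, where a call required both a fold of 1.6 or more and an adjusted p-value below 0.05. Of all 15305 genes tested, 0 were called (0.00%), and the lowest adjusted p-value of any gene was 0.811. At an unadjusted p-value under 0.05, edgeR counted 0 of the 10 members, against 2.28% of all genes lower in OVX and 1.47% higher (3.75% in either direction). No member had groups that did not overlap, which 4.12% of all genes had with OVX below Sham and 4.33% with OVX above Sham. The two-sided exact permutation test gave p-values from 0.6 to 1.0 over the members, and 0.1 is the smallest that 3 libraries against 3 allow.

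All 10 log2 fold changes were below 0, with a median of -0.32 against -0.0081 over all genes tested, of which 51.8% were below 0. Without Sham replicate 2 the picture turned: 9 of the 10 were above 0, with a median of 0.17, where 49.4% of all genes were above 0, and 0 of the 10 reached an unadjusted p-value under 0.05 (0.788% of all genes did so with OVX higher). The turn was largest for H2-Eb1, from -0.38 to 0.26. Without Sham replicate 1, in which all members were lowest, the median was -0.55, and Ciita and H2-DMa reached an unadjusted p-value under 0.05 (0.0231 and 0.0466 by edgeR), where 16.8% of all genes did so in either direction. Without Sham replicate 3, the library with the most neutrophil RNA, the median was -0.47. The direction of the class II genes after ovariectomy thus depended on which Sham libraries were compared. The 10 genes are linked and are not 10 independent observations.

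**Figure D2:**
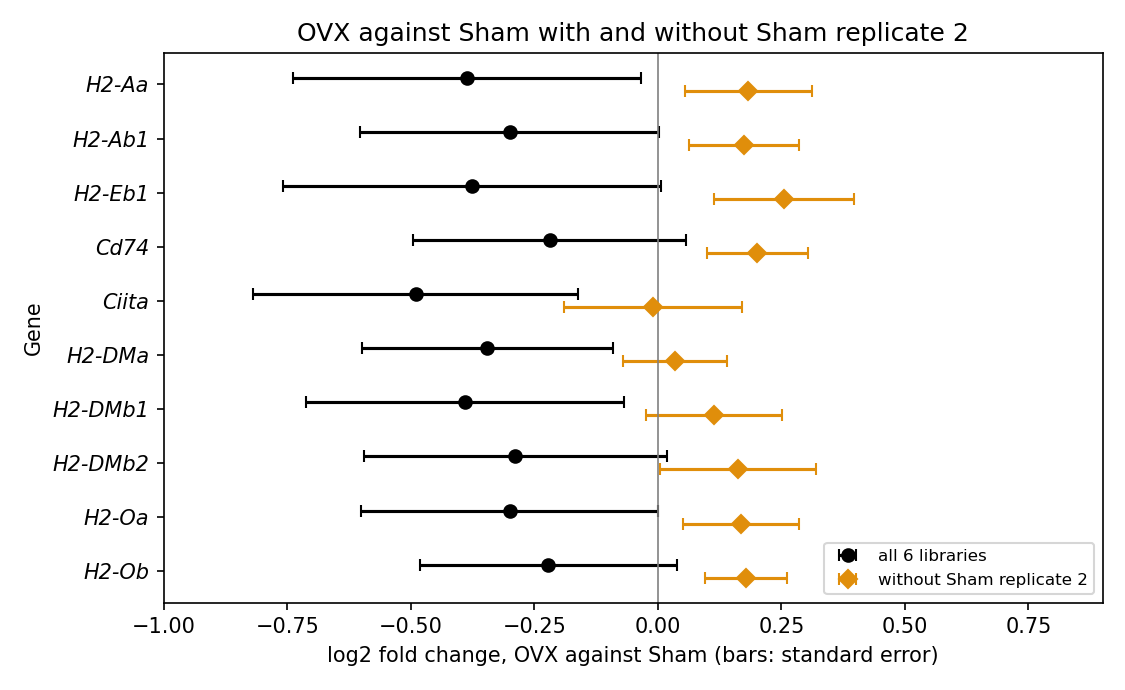
Log2 fold change of OVX over Sham for the 10 MHC class II genes with all 6 libraries and without Sham replicate 2, bars showing the standard error of edgeR's fit. With all libraries the 10 values lie between -0.49 and -0.22. Without Sham replicate 2 they lie between -0.0094 and 0.26.

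The rise in Sham replicate 2 was itself uncommon among the genes measured. Each member was at least 1.64 times higher there than in its next highest library, and among the members the ratio ran up to 1.93 for H2-Eb1. Of the 15305 genes, 362 (2.37%) reached 1.64, while 25.7% of all genes were highest in that library. The cutoff of 1.64 is the lowest ratio of the members, so all 10 pass it by construction. The library was also picked from their values, so the share is a description. Sham replicate 2 is 1 library, so the rise has no replicate.

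Because the members rose together, the proportions between partner chains varied much less than the levels. The log2 ratio of H2-Aa to H2-Ab1 counts was -0.09, 0.10 and -0.08 in the Sham libraries and -0.01, -0.12 and -0.10 in the OVX libraries, a range of 0.216 over 6 libraries. Cd74 to H2-Ab1 ranged over 0.191, H2-Oa to H2-Ob over 0.213, and H2-DMa to H2-Oa, the editor against its antagonist, over 0.185. H2-DMa to the sum of H2-DMb1 and H2-DMb2 ranged over 0.283 and H2-Eb1 to H2-Ab1 over 0.345. In Sham replicate 2 the classical chains H2-Aa and H2-Eb1 were highest, and Cd74 lowest, relative to H2-Ab1.

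Ciita kept the loosest proportion to the class II chains. Its log2 ratio to H2-Ab1 was -2.33, -2.12 and -1.98 in Sham and -2.22, -2.36 and -2.37 in OVX, a range of 0.394 over 6 libraries. The group means differed by -0.18, and the groups overlapped, as they did for all 7 ratios examined. A ratio within a library does not depend on how the libraries were scaled.

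Pairs of members were correlated over the 6 libraries with Pearson's r of at least 0.935, a description in which all points share the high value in Sham replicate 2. The partner chains H2-Aa and H2-Ab1 were the most alike at 0.999, and still 0.985 over the 5 libraries without Sham replicate 2. Cd74 was most like H2-Ob at 0.997. Ciita was the least like the rest, with its highest value, 0.983, for H2-DMa. Without Sham replicate 2 the lowest r of any pair was 0.558, between Ciita and H2-Ob.

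Among 9250 genes with a mean of at least 10 CPM, 180 genes outside the group had an r of at least 0.95 with the mean class II profile over the 6 libraries. The 10 with the highest r were Haao (0.997), Grap, Ggct, Il2rg, Rasgef1b, March1, Ripor2, Gm15675, Mllt6 and Kbtbd11 (0.994). Haao, an enzyme of tryptophan breakdown, had 29.8, 78.4 and 39.2 CPM in Sham and 40.4, 33.7 and 38.7 CPM in OVX, and its r was 0.974 over the 5 libraries without Sham replicate 2. Il2rg, the common gamma chain of cytokine receptors, had 64.4, 107 and 74.6 CPM in Sham and 75.2, 68.7 and 73.6 CPM in OVX. March1, now named Marchf1, is a ubiquitin ligase that removes class II molecules from the cell surface, and it had 43.8, 146 and 60.9 CPM in Sham and 65.7, 47.6 and 57.1 CPM in OVX. All 3 were highest in Sham replicate 2 and lowest in Sham replicate 1, like the members.

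The neighbours of the class II genes on chromosome 17 did not share the rise to the same degree. Between H2-Oa and H2-Eb2 (chr17:34092379-34341410) 14 of 15 annotated genes were tested, 8 members and 6 others. The others were Brd2, a chromatin reader, Psmb8 and Psmb9, subunits of the immunoproteasome, Tap1 and Tap2, the peptide transporter of the MHC class I route, and H2-Eb2, a further class II beta chain. Sham replicate 2 over the mean of the other 5 libraries was 0.965 for Brd2, 1.02 for Psmb8, 1.09 for Psmb9, 1.13 for Tap1 and 1.18 for Tap2. For H2-Eb2 it was 2.18, within the range of the members. Tap1 and Tap2 lie between H2-DMb1 and H2-Ob, so the genes with and without the rise are interleaved along the chromosome.

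**Figure D3:**
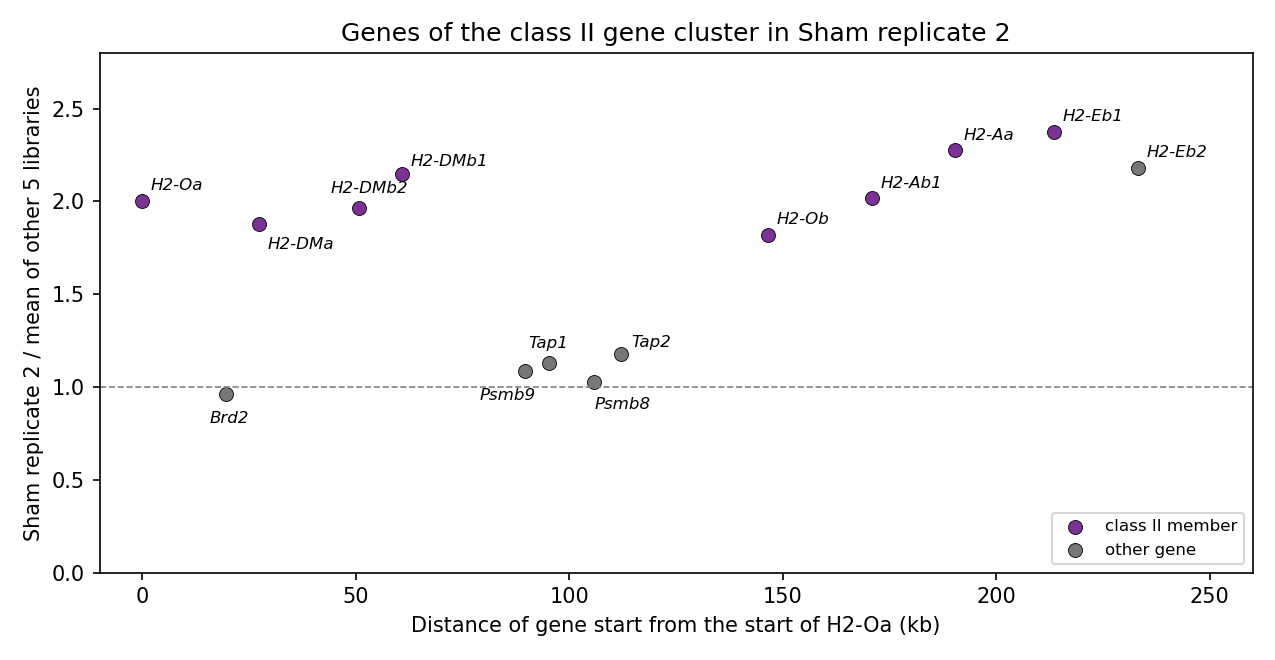
Level in Sham replicate 2 divided by the mean of the other 5 libraries, for the 14 tested genes of the class II cluster, against the distance from the start of H2-Oa in kb. The class II genes, H2-Eb2 included, lie between 1.82 and 2.38, and Brd2, Psmb9, Tap1, Psmb8 and Tap2 lie between 0.965 and 1.18.

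H2-Eb2 measured 19.7, 60.0 and 27.0 CPM in Sham and 37.4, 29.3 and 24.0 CPM in OVX. Its log2 fold change was -0.24 (standard error 0.39, adjusted p = 0.879 by edgeR), and 0.37 without Sham replicate 2.

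The rest of the pathway was taken from 6 lists of 39 genes, of which 38 were tested. Of these, 0 were called (0.00% of all genes were), 26 had a log2 fold change below 0 and 12 above, and the median was -0.11, or 0.02 without Sham replicate 2. At an unadjusted p-value under 0.05 there was 1 gene in each direction, Prdm1 lower and Nfyc higher.

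Most of the factors that sit on the X and Y boxes were not highest in Sham replicate 2. Of the 7 tested (the RFX subunits Rfx5, Rfxap and Rfxank, the NF-Y subunits Nfya, Nfyb and Nfyc, and Creb1), 6 had a log2 fold change above 0, the median was 0.16, and their median level in Sham replicate 2 was 0.802 of the mean of the other 5. In Sham replicate 2, 5 of the 7 were lowest and 1, Rfx5, was highest. Rfx5 had 60.5, 76.2 and 67.5 CPM in Sham and 66.8, 61.0 and 64.0 CPM in OVX, highest in Sham replicate 2 and lowest in Sham replicate 1 like the members, though only 1.19 times above the mean of the other 5. Its log2 fold change was -0.09, the lowest of the list, and -0.0049 without Sham replicate 2, and the highest was 0.25 for Rfxap. Nfyc had 68.5, 65.8 and 65.9 CPM in Sham and 70.8, 78.6 and 74.9 CPM in OVX. Every OVX library was above every Sham library, with a log2 fold change of 0.16 (standard error 0.07, unadjusted p = 0.0402, adjusted p = 0.811 by edgeR). Rfxank was separated in the same way, with 28.2, 23.5 and 27.9 CPM in Sham and 31.0, 32.8 and 28.3 CPM in OVX (log2 fold change 0.21, standard error 0.11). The share of all genes separated in this direction was 4.33%.

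Of 9 regulators of Ciita, 5 had values below 0 and 4 above, with a median of -0.05. Pax5, the B cell identity factor, was even across libraries, with 1232, 1194 and 1328 CPM in Sham and 1252, 1302 and 1264 CPM in OVX. Prdm1, which encodes the plasma cell factor BLIMP-1 and silences Ciita, was low throughout, with 3.42, 9.47 and 6.59 CPM in Sham and 3.50, 3.84 and 2.87 CPM in OVX. Its log2 fold change was -0.93 (standard error 0.36, unadjusted p = 0.0354, adjusted p = 0.811 by edgeR) and -0.56 without Sham replicate 2, and the groups overlapped. Irf4, a factor of B cell activation, was at the other end of the list with 0.20.

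The enzymes that cut the invariant chain and antigens numbered 9, all with values below 0, from -0.47 for Ctsh to -0.03 for Ctsz, and a median of -0.18 (0.04 without Sham replicate 2). Ctss, cathepsin S, the main invariant chain protease of B cells, had 201, 349 and 228 CPM in Sham and 206, 195 and 253 CPM in OVX. Ctsb, a lysosomal protease abundant in macrophages, had 507, 853 and 464 CPM in Sham and 377, 381 and 828 CPM in OVX. Ctsb was thus high in OVX replicate 3 as well as in Sham replicate 2, and Ctsz was highest in OVX replicate 3. Of the 9 enzymes, 7 were highest in Sham replicate 2, as all the class II genes were. Ctsh stood there at 1.96 times the mean of the other 5 libraries, within the range of the members.

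Of 6 genes of class II turnover and peptide exchange, 4 had values below 0 and 2 above, from -0.56 for Marchf1 to 0.06 for Cd81, a tetraspanin of the B cell coreceptor. The 6 genes of the costimulation list all had values below 0, with a median of -0.59, and all were highest in Sham replicate 2. They ran from -0.92 (standard error 0.62) for Pdcd1lg2 to -0.13 for Cd40. Icosl, the ligand of ICOS, had 46.3, 187 and 81.6 CPM in Sham and 92.0, 55.0 and 62.3 CPM in OVX. Without Sham replicate 2 the median of the list was -0.10.

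Most genes of mature B cells were also highest in Sham replicate 2. Sham replicate 2 had the highest level of 9 of the 12 mature B cell genes, and the list summed to 2808, 4706 and 2981 CPM in Sham and 3083, 3216 and 3239 CPM in OVX. Ighd, the IgD heavy chain, had 425, 1011 and 432 CPM in Sham and 546, 449 and 512 CPM in OVX. Fcer2a, the CD23 gene, had 136, 432 and 189 CPM in Sham and 200, 131 and 169 CPM in OVX. Klf2, Tnfrsf13c and Ms4a1 (CD20) were the exceptions, at 0.994, 0.989 and 1.05 times the mean of the other 5 libraries in Sham replicate 2, and each was highest in an OVX library. With all libraries 8 of the 12 log2 fold changes were below 0 and 4 above (Ccr7, Klf2, Tnfrsf13c and Ms4a1), with a median of -0.28. The median was 0.14 and all 12 were above 0 without Sham replicate 2.

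Genes of pro-B and pre-B cells, which carry little class II, were mixed, although their sum was lowest in Sham replicate 2. The summed level of 12 such genes was 4198, 2311 and 2992 CPM in Sham and 3541, 4309 and 4343 CPM in OVX. Of the 12 genes, 6 were lowest in Sham replicate 2, among them Rag1, and 6 in Sham replicate 3, among them Dntt and Igll1. Vpreb2 was highest in Sham replicate 2, at 1.26 times the mean of the other 5 libraries. Rag1, of the enzyme that cuts the DNA at immunoglobulin gene segments before they are joined, had 1349, 580 and 974 CPM in Sham and 1073, 1514 and 1451 CPM in OVX. General B cell genes were more even as a sum, with 9949, 9734 and 9096 CPM in Sham and 9508, 10692 and 10152 CPM in OVX. The single genes were mixed, and of the 12, 4 were highest and 5 lowest in Sham replicate 2. Their level there ran from 0.58 times the mean of the other 5 libraries for Vpreb3 to 2.01 times for Bank1.

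RNA of other cells that can carry class II was also present, at a low level for dendritic cells and at a higher one for macrophages. The 8 genes of conventional dendritic cells summed to 12.3, 22.8 and 27.0 CPM in Sham and 11.8, 7.40 and 12.7 CPM in OVX, so Sham replicate 3, and not Sham replicate 2, was highest. All 7 that were tested had values below 0, and 4 had an unadjusted p-value under 0.05 (Itgax, Flt3, Cd209a and Clec10a), where 2.28% of all genes did so in that direction. Their adjusted p-value by edgeR was 0.811. The 16 genes of monocytes and macrophages summed to 1488, 2927 and 1910 CPM in Sham and 1240, 850 and 2224 CPM in OVX, and 11 of them were highest in Sham replicate 2. Ly6c2, Ccr2 and Lyz2 were instead highest in Sham replicate 3, and Adgre1 and Marco in OVX replicate 3. Lyz2 had 394, 567 and 1070 CPM in Sham and 576, 182 and 322 CPM in OVX, a large part of the sums. The second highest sum of the monocyte and macrophage list was in OVX replicate 3, whose summed class II level was 5560 CPM. The part of mature B cells, of macrophages and of dendritic cells in the class II levels was not tested.

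**Figure D4:**
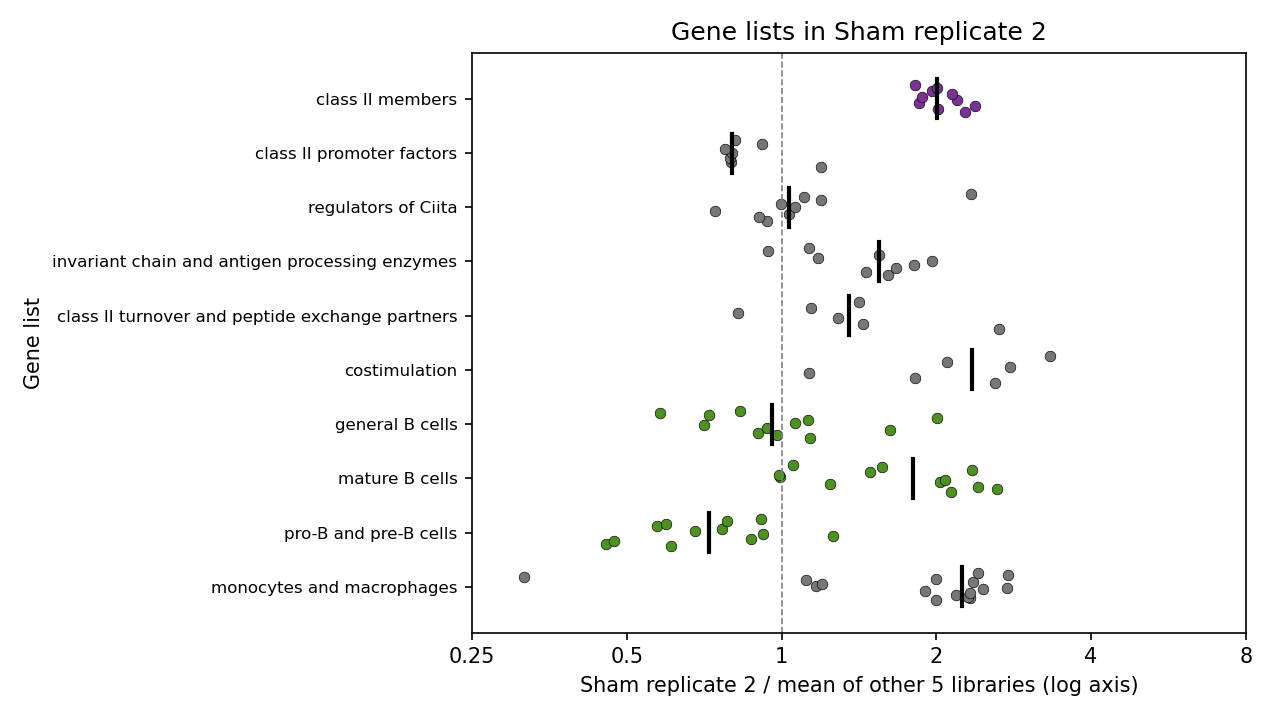
Level in Sham replicate 2 divided by the mean of the other 5 libraries, on a log axis. Each point is a tested gene, with a bar at the list's median. The lists shown are the class II group and the pathway lists except the other class II chains. Of the cell type lists, general B cells, mature B cells, pro-B and pre-B cells, and monocytes and macrophages are shown. The medians are 2.01 for the class II genes, 1.80 for mature B cell genes, 2.24 for monocyte and macrophage genes, 0.721 for pro-B and pre-B genes and 0.802 for the promoter factors.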

How the data were processed

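Bone marrow B cells of 3 Sham and 3 OVX samples were profiled by RNA-seq. The files deposited by the authors are whole-number read counts by Ensembl identifier, with no normalization. The submitters' processing notes name CASAVA, Bowtie 0.12.2 and the build mm10. The counting tool, the annotation and any use of strand are not given in the sources used here. An anti-HIF-1α ChIP library and its input were not analysed here.

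Symbols were matched to 54409 of 54532 identifiers, and positions and promoter windows came from RefSeq tables of GRCm38.p6. The count table was fitted with edgeR 4.0.16 (R 4.3.3): filterByExpr by group (15305 genes kept), TMM factors and the quasi-likelihood test, with Benjamini-Hochberg adjustment over all genes tested and no covariates. A standard error is the log2 fold change over the square root of F. Single genes were also compared by an exact permutation test on log2 CPM. Alternatives used limma 3.58.1, DESeq2 1.42.0, other scalings and filters, a replicate block and fits that omitted 1 library at a time. The statistics were tested on simulated counts in which 200 genes were changed by a known fold. There edgeR called 41 of the 200 at a fold of 1.6 and 112 at a fold of 2, so it missed many changes of that size. Libraries held 23838775 to 33136701 counts, and no pair agreed within sampling noise (chi-square per degree of freedom of at least 8.71).

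The 10 members and all other lists were chosen with earlier results of these data known. The genes named are the members, pathway genes at an unadjusted p-value under 0.05, with groups that did not overlap or at the ends of a list, the 10 genes most like the members by Pearson's r of log2 CPM, and markers. Pathway genes named beyond that rule (Ctss, Ctsb, Pax5 and Icosl), the neighbours in the cluster and the promoter letters were chosen after values were seen. Plasma cell, plasmacytoid dendritic cell, erythroid and T and NK cell lists were also computed.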

Additional observations from a re-analysis of the deposited data

How the results depend on the processing

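No member, no other pathway gene and no gene of the whole table was called under DESeq2, limma-voom, library size only, DESeq2 size factors, scaling on 12 general B cell genes, the other filters, no fold threshold, the replicate block or with any library left out. The lowest adjusted p-value of a member under any of these was 0.273, without Sham replicate 1. The members' median log2 fold change of -0.32 ran from -0.39 to -0.20 under the alternatives that kept all libraries and from -0.55 to 0.17 with a library left out, the latter without Sham replicate 2. The summed level, as a log2 ratio of OVX over Sham, was -0.28 and ran from -0.51 to 0.19 with a library left out. The number of members at an unadjusted p-value under 0.05 ran from 0 to 2, the 2 without Sham replicate 1.

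With a library left out, log2 fold changes ran from -0.64 to 0.18 for H2-Aa, -0.52 to 0.17 for H2-Ab1, -0.66 to 0.26 for H2-Eb1, -0.43 to 0.20 for Cd74, -0.55 to 0.035 for H2-DMa, -0.63 to 0.11 for H2-DMb1, -0.54 to 0.16 for H2-DMb2, -0.53 to 0.17 for H2-Oa, -0.41 to 0.18 for H2-Ob and -0.77 to -0.0094 for Ciita. The values above 0 are those without Sham replicate 2, and they are the only reversals. The cause was not tested.

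Genes at an unadjusted p-value under 0.05 numbered 574, against 206 with the replicate block, 233 without OVX replicate 2, 2698 without Sham replicate 1 and 1269 of 27416 with no filter. With the replicate number as a block the members' median was -0.20, 0 were called and the members' adjusted p-values were 0.971 to 0.972. The deviations of same-numbered libraries from their group means correlated at -0.41, -0.19 and -0.28. With 3 libraries per group, and Sham replicates 2 and 3 standing apart, these values cannot settle whether the numbers pair the libraries. Scaling on the B cell genes moved the median of all genes by -0.08. The members' counting error was at most 3.94% in a library. Why no member was called was not tested.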

Other observations

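The plasma cell list summed to 1292, 1575 and 1569 CPM in Sham and 1386, 1347 and 1161 CPM in OVX. Its genes were mixed, with 5 log2 fold changes below 0 and 4 above. Irf4, also a factor of B cell activation, had 527, 392 and 491 CPM in Sham and 549, 586 and 487 CPM in OVX. Jchain had 112, 640 and 515 CPM in Sham and 257, 105 and 71.2 CPM in OVX. The sum is therefore not a measure of plasma cells alone. Plasmacytoid dendritic cell genes summed to 20.2, 37.0 and 47.4 CPM in Sham and 25.96, 14.2 and 18.8 CPM in OVX. T and NK cell genes summed to 22.7, 39.8 and 49.4 CPM in Sham and 24.7, 15.5 and 39.2 CPM in OVX, and erythroid genes to 232, 484 and 325 CPM in Sham and 271, 148 and 297 CPM in OVX. The erythroid list was highest in Sham replicate 2, like the class II genes, and the plasmacytoid dendritic cell and T and NK cell lists were highest in Sham replicate 3.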
